A study of Mus musculus with 4 samples.

Results

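Of the 5081 Ldb1 binding sites that the authors listed on the mouse autosomes (chromosomes 1 to 19), 1314 (25.9%, exact 95% interval 24.7 to 27.1) had no listed Tal1 or Gata1 site centre within 1000 bp. These are called far sites below, and the other 3767 near sites. The full Ldb1 list held 5170 sites, 89 of them on chromosomes X and M. Far sites were chosen by calls made on the same libraries that are described here: a call for Ldb1 against IgG, and no call for Tal1 or Gata1. Their Ldb1 level and their lack of a strong partner signal were therefore set by the choice and are not findings. The control IgG library held 5 or more tags within 250 bp of the centre at 221 far sites (16.8%, 14.8 to 18.95), which are described apart. The remaining 1093 far sites had under 5 IgG tags. At near sites the share with 5 or more IgG tags was 16.6% (15.5 to 17.9).

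The study asked what part Ldb1 complexes play in switching on erythroid genes. It used chromatin immunoprecipitation followed by sequencing (ChIP-seq) on total bone marrow of mice, with cells taken fresh and fixed with formaldehyde. The 4 groups were a library from an Ldb1 antibody, one from an Scl/Tal1 antibody (here Tal1), one from a Gata1 antibody and one from control IgG. The sources used here do not give the strain, age or sex of the mice. Total marrow holds erythroid cells together with many other cell types, so a site may be occupied in some of them only. With 1 library per antibody no difference has a replicate check, and every interval covers counting error only. The tags were amplified and carry no molecular identifiers, so repeated ones may stem from 1 molecule.

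Ldb1 is an adaptor protein that has no DNA-binding domain of its own and dimerizes, joining transcription factors through LIM-domain proteins such as Lmo2. E-boxes are bound by Tal1, of the basic helix-loop-helix family, together with an E-protein partner. GATA motifs are bound by the zinc fingers of Gata1. In red cell precursors the 3 proteins are known as members of one complex, and in other tissues Ldb1 also joins LIM-homeodomain factors to DNA. Total marrow also contains cells in which the related factor Gata2 is active. Far sites are thus the Ldb1 calls for which neither of the 2 assayed DNA-binding partners was called.

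The libraries held between 5767555 (Tal1) and 7873298 (Gata1) aligned tags, with 6368803 for Ldb1 and 7437674 for IgG. Levels count the tags centred no more than 250 bp from a site's midpoint, per 1000000 tags of the library (RPM). A single tag was worth 0.157 RPM (Ldb1), 0.173 (Tal1), 0.127 (Gata1) or 0.134 (IgG). IgG tags were 36 bases long and those of the other libraries 25, and whether that moved the ratios to IgG was not tested. Per the submitters' processing notes, positions refer to mm8.

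The authors' caller gave far sites low tag numbers. The caller's tag number per site (distinct tags that support a call) had a median of 10 at far sites with under 5 IgG tags, with a range of 9 to 44. At near sites with under 5 IgG tags the median was 18 and the highest value 180. The minimum the caller allowed for Ldb1 was 9 tags, and 336 of the 1093 far sites (30.7%, 28.0 to 33.6) stood exactly there, against 8.25% (7.31 to 9.27) of the near sites. The tag number came from the calls that chose the members, so this is a description.

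At the 1093 far sites with under 5 IgG tags, Ldb1 stood at 3.27 RPM per site (3.23 to 3.32), Tal1 at 1.39 (1.36 to 1.42), Gata1 at 1.13 (1.11 to 1.16) and IgG at 0.236 (0.225 to 0.247). Tags of Tal1 and Gata1 were thus present above IgG at sites without a call for them. Ldb1 was thereby 13.9-fold above IgG (13.2 to 14.5), Tal1 5.88-fold (5.59 to 6.18) and Gata1 4.80-fold (4.57 to 5.05). Since sites with more IgG tags had been set aside, the IgG level was held down by that choice. Over all 1314 far sites the folds were 8.45 for Ldb1, 3.57 for Tal1 and 2.92 for Gata1.

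A comparison that does not divide by IgG set each library against its own flanks, 2 to 5 kb away on both sides. Ldb1 was 9.73 times its flank (9.56 to 9.91), Tal1 4.10 times (4.004 to 4.203) and Gata1 3.49 times (3.41 to 3.57). IgG was 1.05 times its flank (0.997 to 1.10), but the limit on IgG tags applied to the window alone and holds this ratio down. Over all 1314 far sites it was 1.78 (1.72 to 1.84). Near sites with under 5 IgG tags, chosen for a partner call, stood at 18.8 (Ldb1), 22.1 (Tal1), 10.4 (Gata1) and 0.980 (IgG) times their flank. In windows moved 3 kb from the far sites and free of any listed site (2090 windows, with no limit on IgG tags), the levels were 0.281 RPM (Ldb1), 0.272 (Tal1), 0.289 (Gata1) and 0.216 (IgG).

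Levels varied from site to site. Ldb1 ranged from 1.41 RPM to 14.9, with a median of 2.98 and quartiles of 2.51 and 3.77. Tal1 ranged from 0 to 5.20 RPM with a median of 1.21, and Gata1 from 0 to 4.19 with a median of 1.02. In tags, medians were 19 (Ldb1), 7 (Tal1), 8 (Gata1) and 2 (IgG). The IgG level reached that of Ldb1 at 0 of the 1093 sites, but that of Tal1 at 98 (8.97%) and that of Gata1 at 89 (8.14%). Tal1 exceeded Ldb1 in RPM at 68 far sites (6.22%, 4.86 to 7.82) and Gata1 did at 19 (1.74%, 1.05 to 2.70). At near sites Tal1 exceeded Ldb1 at 56.9% (55.1 to 58.6).

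**Figure D1:**
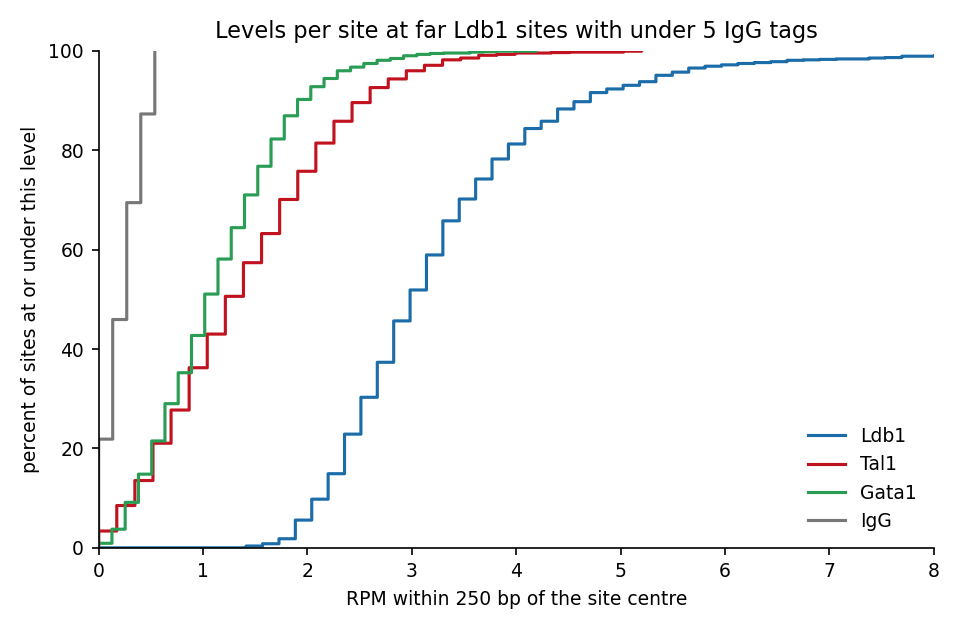
Share of the 1093 far Ldb1 sites with under 5 IgG tags (vertical axis, percent) at or under a given level (horizontal axis, RPM within 250 bp of the centre, shown to 8), 1 line per library. The Ldb1 line lies farthest to the right with a median of 2.98 RPM, Tal1 and Gata1 lie close together with medians of 1.21 and 1.02, and IgG ends at 0.538 because sites with 5 or more IgG tags are left out.

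A site was counted as raised for a partner when the partner's RPM was at least 3 times that of IgG, with IgG counts under 3 raised to 3, so that at least 7 Tal1 or 10 Gata1 tags were needed. Over all 5081 autosomal Ldb1 sites 83.3% passed for Tal1, 75.2% for Gata1 and 69.1% for both. Of the 1093 far sites with under 5 IgG tags, 598 passed for Tal1 (54.7%, 51.7 to 57.7), 430 for Gata1 (39.3%, 36.4 to 42.3) and 265 for both (24.2%, 21.7 to 26.9). These shares lie under those of all sites, and the rule on missing calls favours that order. They lie above those of the windows 3 kb away, of which 3.49% (2.75 to 4.37) passed for Tal1, 1.20% (0.776 to 1.76) for Gata1 and 0.335% for both. Near sites with under 5 IgG tags passed at 96.6% for Tal1 and 92.3% for Gata1.

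Far sites split into 4 classes by these thresholds. Beside the 265 sites raised for both partners, 333 (30.5%) were raised for Tal1 only, 165 (15.1%) for Gata1 only and 330 (30.2%, 27.5 to 33.0) for neither. Ldb1 stood at 3.47 RPM (3.38 to 3.56) where both were raised and 3.43 (3.35 to 3.51) with Tal1 only. It was lower, at 3.20 (3.09 to 3.31), with Gata1 only and at 3.003 (2.93 to 3.08) with neither. The classes were cut from the partner tags, so the partner levels follow from the cut. Even so, the 330 sites with neither partner raised held Tal1 at 0.619 RPM (0.584 to 0.655) and Gata1 at 0.686 (0.655 to 0.719), which was 1.94 times (1.82 to 2.07) and 2.20 times (2.09 to 2.31) the own flank. IgG there was 1.15 times its flank (1.06 to 1.25).

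Few far sites lacked partner tags altogether. There was no Tal1 tag at 37 of the 1093 sites (3.39%, 2.39 to 4.64) and no Gata1 tag at 10 (0.915%, 0.440 to 1.68). At 14 sites (1.28%, 0.702 to 2.14) Tal1 and Gata1 together had at most 2 tags. The limit that a count of 0 allows in 1 window, 3 tags, corresponds to 0.520 RPM for Tal1 and 0.381 for Gata1, so a site at 0 may still have had a low level. At the other end, 207 far sites (18.9%) held 8 or more distinct Tal1 tags, against 72.9% of all autosomal Ldb1 sites. For 11 or more distinct Gata1 tags it was 274 far sites (25.1%), against 73.2% of all. The minima of 8 and 11 are the numbers the caller required of a Tal1 and a Gata1 site. Whether the caller's rules on strand or background kept these far sites from a partner call was not tested.

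The strands of the tags gave a readout beyond the level. In ChIP-seq, plus-strand tags pile up to the left of a bound position and minus-strand tags to the right. At far sites with under 5 IgG tags, 85.8% (85.4 to 86.3) of Ldb1 tags lay on the side that fits their strand, and the caller chose sites on that property. For Tal1, which did not set the centre, the share was 69.3% (68.4 to 70.3), and for Gata1 67.1% (66.2 to 68.0). IgG stood at 51.5% (49.2 to 53.8). In the windows 3 kb away the shares were 52.2% (Ldb1), 53.02% (Tal1), 53.3% (Gata1) and 53.4% (IgG).

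With 1 tag kept per position and strand, 69.3% of Tal1 tags (68.0 to 70.5) and 66.6% of Gata1 tags (65.6 to 67.6) lay on the fitting side. At the 330 far sites with neither partner raised, the share over all tags was 67.2% (64.5 to 69.9) for Tal1 and 64.8% (62.6 to 67.1) for Gata1, with IgG at 47.8% (43.8 to 51.8). Near sites with under 5 IgG tags gave 75.6% for Tal1 and 74.4% for Gata1. In bins of 50 bp, the plus and minus maxima at far sites were 100 bp apart for Ldb1, Tal1 and Gata1 alike.

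**Figure D2:**
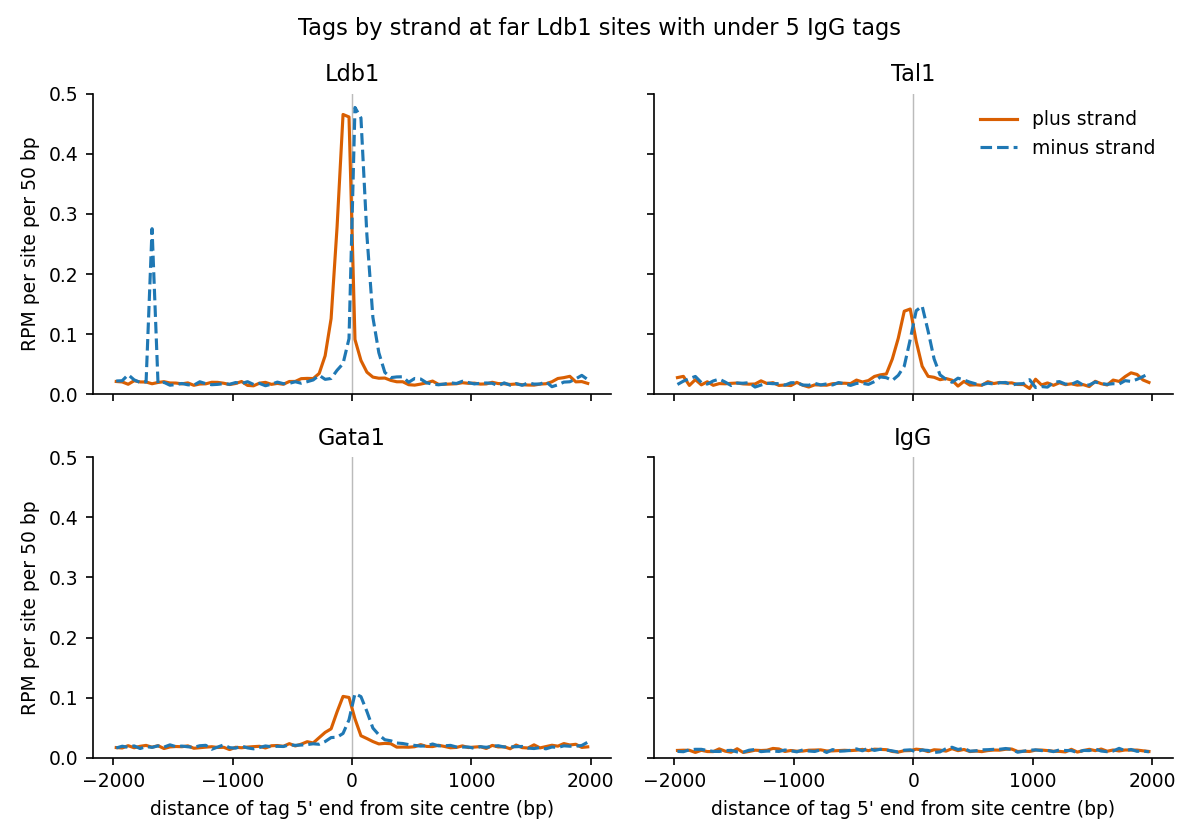
Mean tag density by strand around the 1093 far Ldb1 sites with under 5 IgG tags, 1 panel per library on a common vertical axis (RPM per site per 50 bp), against the distance of the tag's start from the site centre (bp). Ldb1 peaks at 0.465 RPM on the plus and 0.477 on the minus strand, Tal1 at 0.142 and 0.147 and Gata1 at 0.102 and 0.107. IgG stays flat, with its tags near the centre limited by the choice of sites. The lone minus-strand spike of Ldb1 at -1675 bp comes almost entirely from 1 site.

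That spike lay outside the windows and flanks used for levels. Of its 1917 minus-strand tags, 1763 lay beside a single far site on chromosome 2 (91750811 to 91750991), at 6 distinct positions. The same pile sat in the window of a near site (chromosome 2, 91749111 to 91749171), where 1774 Ldb1 tags had 14 distinct positions and strands and the caller counted 10.

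Partner levels were compared across strengths of the Ldb1 site. Far sites with under 5 IgG tags were grouped by the caller's tag number into 9 (336 sites), 10 (257), 11 to 12 (252), 13 to 15 (151), 16 to 20 (72) and 21 to 44 (25). Ldb1 rises along these groups by their making, from 2.55 to 8.01 RPM. Tal1 stood at 1.23 RPM (1.18 to 1.28) in the weakest group, 1.37, 1.47, 1.41 and 1.63 in the next 4, and 1.97 (1.75 to 2.21) in the strongest. Gata1 went from 1.06 (1.02 to 1.10) to 1.22 (1.07 to 1.38), with no group above that. IgG lay between 0.188 and 0.263 RPM in the 6 groups. The Tal1 intervals of the weakest and the strongest group do not overlap, and those of Gata1 do. These intervals cover the counting error of pooled tags and leave out the spread between sites, of which the strongest group has 25. Whether Tal1 and Gata1 differ in this respect was not tested.

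Near sites in the same groups had more of both partners, which their choice favours. At a tag number of 9, near sites held 3.32 times (3.16 to 3.48) the Tal1 level of far sites, 2.28 times (2.17 to 2.38) the Gata1 level and 1.24 times (1.19 to 1.29) the Ldb1 level. At 16 to 20 the ratios were 3.604 (3.34 to 3.90) in Tal1, 2.59 (2.39 to 2.80) in Gata1 and 1.07 (1.02 to 1.11) in Ldb1. IgG ratios ranged from 0.825 (0.688 to 0.995) at 16 to 20 to 1.24 (0.889 to 1.78) from 21 upward. At a tag number of 10 the Ldb1 ratio was 1.57, and it was 1.15 (1.11 to 1.20) without the near site on chromosome 2 with the tag pile. From 21 upward the ratios were 8.82 for Tal1, 5.19 for Gata1 and 1.71 for Ldb1, but near sites there reach a tag number of 180 and far sites only 44.

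**Figure D3:**
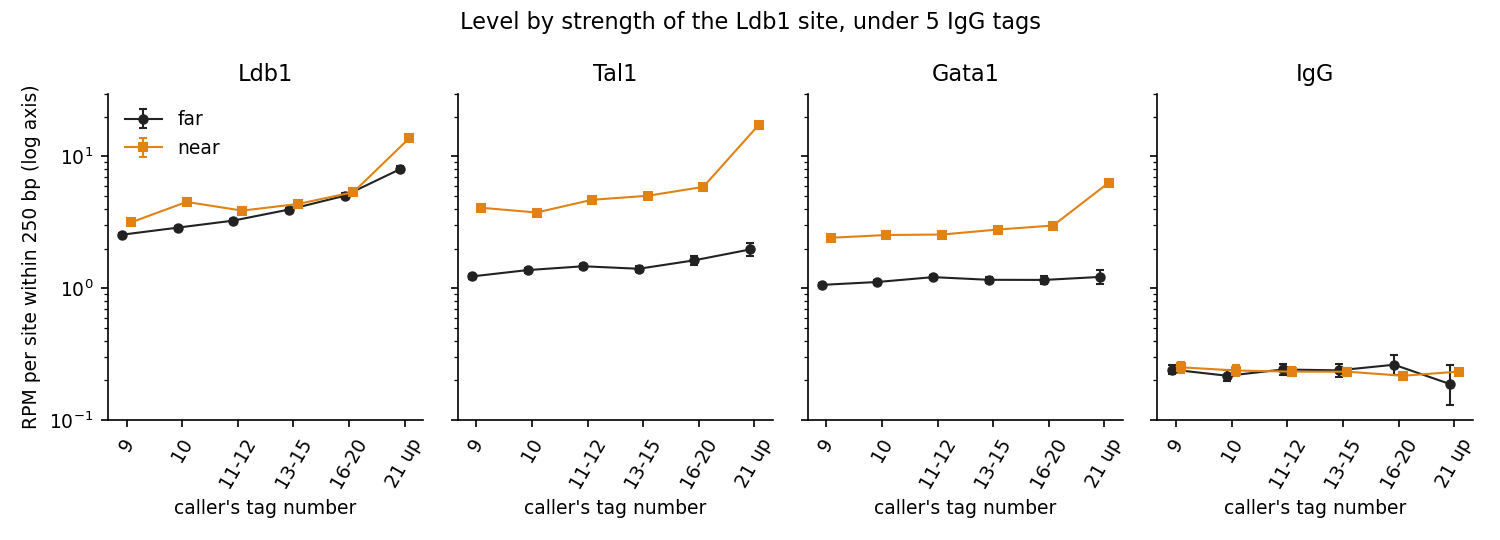
Mean level per site (vertical axis, RPM within 250 bp, logarithmic) by the caller's tag number for the Ldb1 site (horizontal axis), for far and near sites with under 5 IgG tags, 1 panel per library; bars are exact Poisson 95% intervals. Far and near sites differ most for Tal1 and Gata1, while up to 20 tags the Ldb1 ratio of near to far is 1.07 to 1.24 apart from 1.57 at 10. IgG ratios lie between 0.825 and 1.24.

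Far sites were not all remote from the partners' sites. The median distance to the nearest Tal1 or Gata1 site centre was 37630 bp for far sites with under 5 IgG tags, with quartiles of 11360 and 104760 bp. A partner site lay within 5 kb of 151 of them (13.8%) and within 20 kb of 394 (36.05%), while 290 (26.5%, 23.9 to 29.3) had none within 100 kb. The nearest partner site was Gata1 for 553, Tal1 for 507 and equally far for 33. Levels of both partners were alike in the former 2 sets, with Tal1 at 1.396 RPM (1.36 to 1.44) where Gata1 was nearest and 1.38 (1.34 to 1.43) where Tal1 was. Gata1 was at 1.12 RPM (1.09 to 1.15) and 1.14 (1.11 to 1.18) in the same order.

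The RPM of both partners was lower at far sites more remote from a partner site, while over IgG the intervals of the nearest and the most remote group overlapped. Tal1 was at 1.53 RPM (1.403 to 1.66) at the 61 sites with a partner at 1 to 2 kb and at 1.57, 1.42, 1.41 and 1.26 RPM at 2 to 5, 5 to 20, 20 to 100 and 100 to 500 kb. It was at 1.14 (1.04 to 1.26) at the 65 sites over 500 kb away. Gata1 stood at 1.32 (1.22 to 1.42), 1.35, 1.20, 1.17 and 0.926 RPM, and at 0.905 (0.824 to 0.991) over 500 kb away. Ldb1 kept between 3.09 and 3.34 RPM in all 6 groups, and IgG between 0.219 and 0.271. IgG had its highest values nearest to partner sites. Over IgG, Tal1 was 5.64-fold higher (4.63 to 6.92) at 1 to 2 kb, between 5.74 and 6.13-fold in the middle groups and 5.11-fold (4.13 to 6.37) over 500 kb away. Gata1 was 4.86-fold (4.002 to 5.95) at 1 to 2 kb and 4.05-fold (3.28 to 5.04) over 500 kb away.

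The share raised at 3 times IgG was lower at the remote end for Gata1, from 54.1% (40.8 to 66.9) at 1 to 2 kb to 21.5% (12.3 to 33.5) over 500 kb. For Tal1 it was 54.1% (40.8 to 66.9) and 46.2% (33.7 to 59.0) at these ends, with overlapping intervals. Over the own flank the order of the ends was the opposite. Tal1 was 3.10 times its flank at 1 to 2 kb and 5.44 times over 500 kb away, and Gata1 3.16 and 3.94 times. The groups between showed no steady rise. Tal1 was at 1.61, 4.79, 5.28 and 5.01 times its flank at 2 to 5, 5 to 20, 20 to 100 and 100 to 500 kb. Gata1 was at 1.86, 3.77, 4.17 and 3.63 times in the same order. Where the nearest partner site was 2 to 5 kb away, the flanks can include its centre. The Tal1 flank level was highest in that group, at 0.970 RPM per 500 bp. It was 0.494 at 1 to 2 kb and 0.2098 over 500 kb away.

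**Figure D4:**
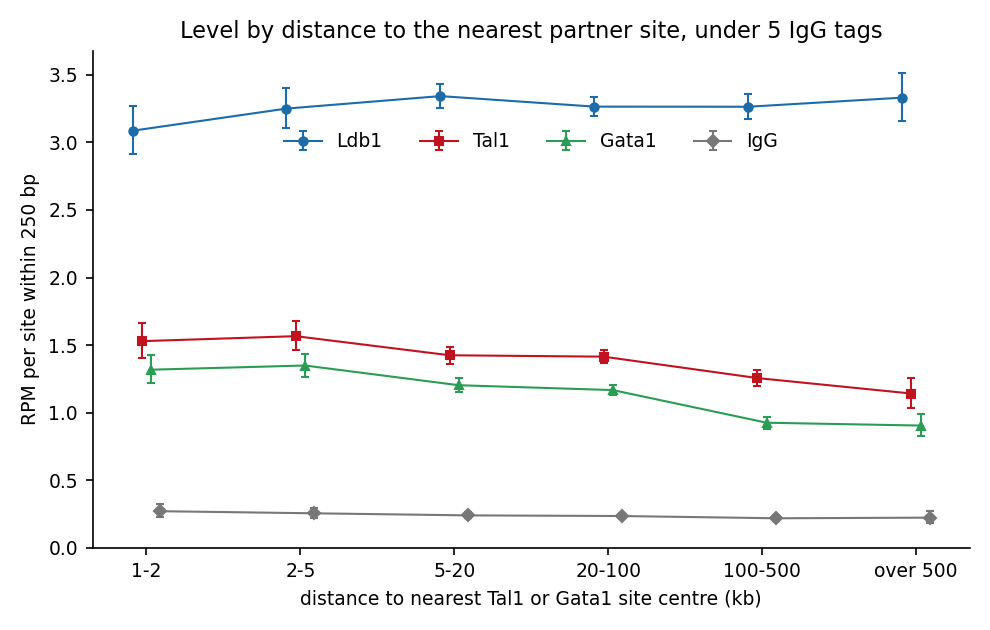
Mean level per site (vertical axis, RPM within 250 bp) at far Ldb1 sites with under 5 IgG tags, by the distance to the nearest Tal1 or Gata1 site centre (horizontal axis, kb), with exact Poisson 95% intervals. Ldb1 holds between 3.09 and 3.34 RPM, Tal1 goes from 1.53 to 1.14, Gata1 from 1.32 to 0.905, and IgG lies between 0.219 and 0.271.

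Far sites stood more alone than near ones. Another Ldb1 site lay within 20 kb of 28.3% of them (25.6 to 31.0), against 52.1% (50.4 to 53.9) of near sites with under 5 IgG tags. Within 2 kb the shares were 3.75% (2.71 to 5.05) and 20.9% (19.5 to 22.4). The distance rule can favour this order, since a close Ldb1 neighbour with its own partner site can make a site near. The 2 sets were not matched for tag number. Among all 1314 far sites there were 8 pairs no more than 2000 bp apart and no larger group. By chromosome, the far share of the Ldb1 sites ran from 19.7% on chromosome 4 (65 of 330, 15.5 to 24.4) to 31.6% on chromosome 15 (68 of 215, 25.5 to 38.3).

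The 10 far sites with the highest tag number among those with under 5 IgG tags had 7.38 to 14.9 RPM of Ldb1, 1.21 to 2.95 of Tal1, 0.508 to 2.16 of Gata1 and at most 0.538 of IgG. Tal1 was raised at 3 times IgG at 9 of the 10 and Gata1 at 2, where all autosomal Ldb1 sites gave 83.3% and 75.2% and the 1093 far sites 54.7% and 39.3%. The top site, on chromosome 13 (84049631 to 84049711), had a tag number of 44. It held 85 Ldb1, 11 Tal1, 8 Gata1 and 3 IgG tags, an Ldb1 fold over IgG of 33.1 (10.9 to 164), and its nearest partner site was 189530 bp away. The next, on chromosome 17 (83898951 to 83898991), had a tag number of 36 with 58 Ldb1, 7 Tal1, 6 Gata1 and 1 IgG tags. These sites had the highest tag numbers only among far sites with under 5 IgG tags, and each of the 10 held at least 7 Tal1 tags. Far sites with 5 or more IgG tags reached a tag number of 139.

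The site of rank 3, on chromosome 3 (79665931 to 79665991), had the most Ldb1 tags of the 1093, with 95 against 16 of Tal1, 17 of Gata1 and 2 of IgG. It was one of a pair: a second far site (79666191 to 79666411), with 49 Ldb1, 8 Tal1, 18 Gata1 and 2 IgG tags, lay 340 bp away. Their windows overlapped, so they share tags. A Gata1 site was listed 5550 bp and a Tal1 site 5570 bp from the former. Another pair on chromosome 19, 930 bp apart, was farther from partners: its sites (42797571 to 42797611 and 42798491 to 42798551) held 23 and 38 Ldb1 tags with 17 and 14 of Tal1, 11 and 15 of Gata1 and 3 and 2 of IgG.

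The partner tag counts differed among the other members of the top 10. A site on chromosome 12 (105417411 to 105417451) had more Gata1 than Tal1 tags, 17 against 8 (17 and 6 distinct), with 47 of Ldb1 and 3 of IgG. A site on chromosome 8 (91169971 to 91170011) held 15 Tal1 tags against 8 of Gata1, 54 of Ldb1 and 1 of IgG. In distinct tags Tal1 and Gata1 were close there, at 9 and 8. A site on chromosome 7 (55652751 to 55652791) had the fewest Gata1 tags of the 10, at 49 Ldb1, 10 Tal1, 4 Gata1 and 1 IgG tags. The site of rank 10, on chromosome 2 (131712571 to 131712611), was the one where Tal1 did not reach 3 times IgG. It held 52 Ldb1, 9 Tal1, 6 Gata1 and 4 IgG tags, of which 8 of Tal1 and 1 of IgG were distinct.

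**Figure D5:**
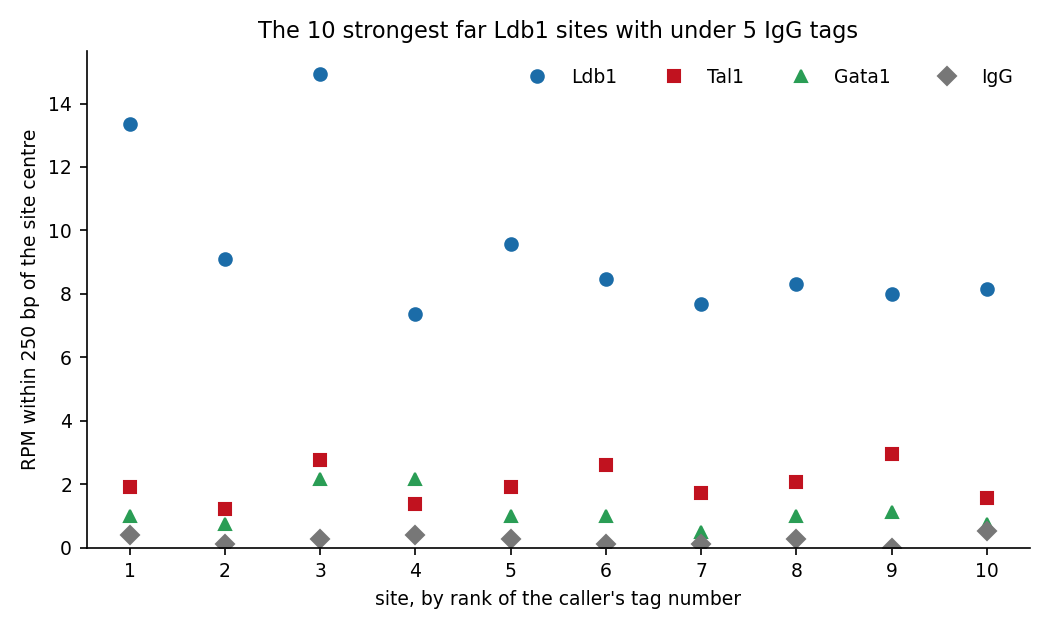
Level (vertical axis, RPM within 250 bp of the centre) in each of the 4 libraries at the 10 far Ldb1 sites with the highest tag number and under 5 IgG tags, ordered by that number (horizontal axis, rank); each point is 1 library at 1 site. Ldb1 lies between 7.38 and 14.9 RPM, above every Tal1 (up to 2.95) and Gata1 (up to 2.16) point.

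The 5 far sites with the highest Tal1 level had tag numbers of 9 or 10, as did 336 and 257 of the 1093 sites, and the mean Tal1 level was lowest in these groups. The first, on chromosome 16 (33035611 to 33035671), held 70 Ldb1, 30 Tal1, 25 Gata1 and 4 IgG tags, but only 11, 7, 6 and 4 of these were distinct in position and strand, so the level rests on repeated tags. On chromosome 10 (79673971 to 79674071) there were 29 Tal1 tags (13 distinct), with 15 Ldb1, 10 Gata1 and 1 IgG tags. On chromosome 11 (29072851 to 29072911) there were 29 Tal1 tags (15 distinct), 16 of Ldb1, 13 of Gata1 and 2 of IgG. Tal1 thus outnumbered Ldb1 at the latter 2 sites, which were picked for a high Tal1 level. In distinct tags its lead was smaller, with 13 against 11 of Ldb1 on chromosome 10 and 15 against 12 on chromosome 11. The nearest listed Tal1 site lay 28040 and 520100 bp away.

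Of the far sites with the most Gata1, ranked by single-site counts, 4 are given. In the whole libraries 88.97% of Gata1 tags and 63.2% of Tal1 tags were distinct. A site on chromosome 2 (90671071 to 90671271) held 33 Gata1 tags, 25 of them distinct, with 24 of Ldb1, 4 of Tal1 and 4 of IgG. Its Gata1 fold over IgG was 7.79 (2.77 to 30.3) and its Tal1 fold 1.29 (0.240 to 6.92). The site of rank 2, on chromosome 7 (48005571 to 48005611), held 30 Gata1 tags of which 16 were distinct, with 13 Ldb1, 9 Tal1 and 3 IgG tags. A site on chromosome 1 (122059111 to 122059231) held 29 Gata1 tags, 23 distinct, with 25 of Ldb1, 7 of Tal1 and 2 of IgG. A site on chromosome 11 (5495591 to 5495651) held 28 Gata1 tags, 25 distinct, with 31 of Ldb1, 11 of Tal1 and 3 of IgG.

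Among the 14 far sites with at most 2 Tal1 and Gata1 tags together, the highest tag numbers were modest. The first pair both stood at 12. On chromosome 15 (36695911 to 36695951) there were 17 Ldb1 tags with 1 of Tal1, 0 of Gata1 and 4 of IgG, and on chromosome 13 (51287271 to 51287371) there were 14 with 1 of each of the others. On chromosome 19 (15159991 to 15160031) 20 Ldb1 tags stood beside 1 of Tal1, 1 of Gata1 and 0 of IgG. Against the floor of 3 IgG tags, Ldb1 was at least 7.79-fold higher there with its 20 tags taken as they stand, and the exact lower 95% bound of the fold was 5.77. These are the sites where Ldb1 tags came with the least of the partners, and each rests on 22 Ldb1 tags or fewer among the 5 with the highest tag numbers.

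The 221 far sites with 5 or more IgG tags were mostly close to that limit, with 5 to 7 IgG tags at 183 of them (82.8%). Over IgG, Ldb1 stood 3.68-fold higher (3.51 to 3.87), Tal1 1.54-fold (1.46 to 1.63) and Gata1 1.26-fold (1.19 to 1.33), and IgG was 4.64 times its flank (4.41 to 4.87). A single site, on chromosome 5 (3000011 to 3002591), held 36.3% of their IgG and 22.8% of their Ldb1 tags. Without it the folds were 4.46 (4.21 to 4.74), 1.93 (1.80 to 2.07) and 1.72 (1.61 to 1.84), and IgG was 2.96 times its flank. IgG above its flank follows from the choice of these sites. Tal1 was raised at 3 times IgG at 47 of the 221 (21.3%, 16.1 to 27.3) and Gata1 at 33 (14.9%, 10.5 to 20.3), against 83.3% and 75.2% of all autosomal Ldb1 sites. Choosing sites with 5 or more IgG tags raises the number of partner tags needed to pass, so a low share is in part fixed by the choice. Among the 133 of these sites with 7 or more Tal1 tags, 47 passed (35.3%).

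The chromosome 5 site differed from the other far sites in its tags. It was 2580 bp wide, and a listed Tal1 site centre lay 1270 bp from its own centre, within its bounds. It counted as far because the rule measures between centres. It held 1571 Ldb1, 530 Tal1, 377 Gata1 and 793 IgG tags, with Tal1 and Gata1 both lower than IgG in RPM. Only 138 Ldb1 and 129 IgG tags were distinct. Tags lay on the side that fits their strand in 19.9% of cases for Ldb1 and 25.5% for IgG, and 37.1% of Ldb1 tags matched the genome without a mismatch, against 56.6% in the whole library. For the other 220 sites with 5 or more IgG tags the fitting share was 82.1% (Ldb1), 65.3% (Tal1), 65.4% (Gata1) and 52.4% (IgG), and 59.8% of Ldb1 tags matched without a mismatch. At far sites with under 5 IgG tags 62.1% did.

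The other sites with the most IgG tags were smaller. On chromosome 9 (3024651 to 3024811) there were 63 Ldb1, 40 Tal1, 28 Gata1 and 28 IgG tags, with 2261 Ldb1 and 637 IgG tags in the flanks. On chromosome 11 (107015251 to 107015451) there were 166 Ldb1, 71 Tal1, 36 Gata1 and 22 IgG tags, of which 47, 12, 6 and 14 were distinct. Over all tags Ldb1 was 8.81 times IgG (5.63 to 14.4) there, and both the fold and its interval count repeated tags separately. Sites with a centre before position 3100000, close to where the assembled sequence of mouse chromosomes begins, numbered 4 of the 221 and 0 of the 1093.

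The values at the edge of the distance rule were as follows. The members just outside 1000 bp had their nearest partner at 1050, 1070 and 1090 bp. They held 35, 17 and 17 Ldb1 tags, 7, 6 and 3 of Tal1, 15, 15 and 14 of Gata1, and 5, 1 and 6 of IgG. The sites just inside, at 1000, 990 and 980 bp, held 38, 15 and 20 Ldb1 tags, 9, 8 and 16 of Tal1, 14, 5 and 8 of Gata1, and 2 of IgG at each. Ldb1 and IgG counts of the 2 sets overlap, Gata1 counts meet at 14, and Tal1 counts were all higher in the sites just inside.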

How the data were processed

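The members and all groupings were chosen with earlier results of these data known. Aligned tags and site lists were used as the authors deposited them. The submitters' processing notes name mm8, and the sources used here name no aligner. The score column of the deposited tag files was not used for levels; the match column gave the share of tags without a mismatch. Per the file headers, SISSRs 1.4 called the sites of each antibody against IgG, with 1 tag kept per position, a p setting of 0.001 and minima of 9 (Ldb1), 8 (Tal1) and 11 (Gata1) tags. The authors' lists give a tag count (the tag number), a fold over background and a p-value per site; only the tag count was used.

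Tag counts in windows and flanks, RPM, folds and shares were computed with scipy 1.17.1, pandas 2.3.3 and numpy 2.4.6 under Python 3.11.15. Ratios carry exact conditional, shares Clopper-Pearson and levels Poisson 95% intervals. The counting code was tested on simulated data. Sites named were, under 5 IgG tags, the 10 with the highest tag number, the 5 with the most Tal1, the 5 with the most Gata1 and the 5 with the highest tag number among those with at most 2 partner tags; the 5 with the most IgG tags; the 3 on each side of the distance limit; and the densest groups. The text gives the values of some of each. Neither a genome nor an annotation of mm8 was used here, so sites carry no gene names or sequences.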

Additional observations from a re-analysis of the deposited data

Results flagged for a closer look

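Chromosomes X and M lay outside the autosomal rule. On chromosome X, 22 of 73 Ldb1 sites were far by the same distance, with an Ldb1 fold over IgG of 14.2 (10.4 to 19.8), a Tal1 fold of 6.77 (4.89 to 9.57) and a Gata1 fold of 3.99 (2.86 to 5.68). All 16 Ldb1 sites on chromosome M had no partner site there, at 6.21 Ldb1 RPM per site. The Ldb1 tag file held 861 tags on chromosome M and the Tal1, Gata1 and IgG files 0 anywhere on it, so there is no partner or background value to set beside these sites and no fold is given. Both chromosomes hold Ldb1 tags that the autosomal values do not use.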

How the results depend on the processing

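Of 71 alternative values, 41 moved, meaning outside the counting interval of the value reported or, for the number of far sites, by over 1.5 times. Each fold over IgG stayed above 1. IgG over its own flank, reported as 1.05 with an interval that includes 1, was 0.615 with under 3 IgG tags. Moving the distance limit to between 200 and 10000 bp gave 1487 to 1006 far sites; only 142 had a tag number above the list's median of 15. Folds over IgG (Ldb1, Tal1, Gata1) and IgG over its own flank were, in this order: over all far sites 8.45, 3.57, 2.92 and 1.78; under 3 IgG tags 23.6, 10.03, 7.80 and 0.615; within 100 bp 22.6, 8.58, 6.35 and 1.12; within 500 bp 7.41, 3.598, 3.13 and 1.13; with 1 tag per position and strand 11.6, 5.25, 4.37 and 1.14. Above the median tag number they were 23.8 for Ldb1, 7.04 for Tal1 and 1.11 for IgG over its flank. With each library first set over its own flank and then over the same ratio of IgG, the folds were 9.31, 3.92 and 3.34. Selection by fewer IgG tags lowers the IgG level by construction.

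The shares raised for Tal1 and Gata1 were 49.1% and 35.2% over all far sites, 31.7% and 10.4% within 100 bp, 36.3% and 24.2% with distinct tags, 70.2% and 62.7% at 2 times IgG, 21.6% and 8.78% at 5 times, and 75.7% and 72.5% with IgG taken as the mean of window and flank. Tal1 was at 69.1% above the median tag number, and Gata1 at 45.6% within 500 bp. For these shares, the number of sites counted as raised depends on the threshold and the window; the fewer tags in the narrower window and with distinct tags lower it by construction. Leaving out sites with another Ldb1 site within 500 bp, chosen after seeing the data, moved no value.

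Limits: each antibody has 1 library, so no replicate was left out. No paired analysis was possible because no group has replicates. Single sites hold a median of 7 Tal1 and 8 Gata1 tags, so partner levels of single sites are imprecise and their ranks uncertain. IgG differs in tag length.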
